A study of Musca domestica with 6 samples.

Results

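Long non-coding RNA (lncRNA) loci of the housefly, Musca domestica, were described from RNA sequencing of larvae injected with double-stranded RNA. The loci were chosen by annotation alone, as every gene that the deposited table gives the biotype lncRNA, and they numbered 865 of 14227 genes. The same table held 13278 protein-coding genes, 72 pseudogenes, 10 tRNA genes and 2 genes of the class misc_RNA. Their genomic spans ran between 198 and 256252 bases. Every gene in the table had at least 1 read in some library, so loci without any read are not among the 865.

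Long non-coding RNAs are transcripts that are not known to encode a protein, and most are made by RNA polymerase II and processed much like messenger RNAs. Some act at the site where they are made, on neighbouring genes or on chromatin, and others act elsewhere in the cell as scaffolds or decoys for proteins and other RNAs. In Drosophila, the roX RNAs of dosage compensation and the heat-inducible hsr-omega RNA are known examples. No housefly locus here carried one of those names in its description.

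The 6 libraries came from whole larvae of the second instar (instar 2), collected 24 h after injection and frozen. The dsMdCht9 group (3 libraries) received double-stranded RNA matching MdCht9, a chitinase gene, which triggers degradation of matching transcripts by RNA interference. The dsGFP group (3 libraries) received double-stranded RNA matching the gene of a jellyfish fluorescent protein, a sequence that the fly lacks, so both groups share the injection and the presence of double-stranded RNA. The labels give no strain and no larval age beyond the instar, and they leave unsaid whether the libraries of a group are separate pools of animals, so every p-value measures the spread between these libraries, which may be technical. The series text names a retinal sample, whereas the sample labels say whole body. The 6 genes described as opsins or rhodopsins summed to between 3.24 and 3.44 CPM in dsMdCht9 larvae and between 3.795 and 4.18 CPM in dsGFP larvae, and storage proteins of the fat body summed to at least 83179 CPM in every library. CPM here means read counts per 1000000 counted reads after scaling by the trimmed mean of M-values (TMM). Values per library follow the order of replicates 1, 2 and 3. No description in the table names MdCht9, so the level of the targeted gene was not analysed here. Counted reads per library ran between 12876941 and 15439421.

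Most lncRNA loci gathered few reads. The median locus had a mean of 0.190 CPM over the 6 libraries, with quartiles of 0.0439 and 0.947 CPM. The median protein-coding gene had 8.83 CPM, with quartiles of 0.972 and 37.2 CPM. In reads, the median lncRNA locus had 17 over all 6 libraries together, against 764 for the median protein-coding gene. Fewer than 10 reads in total were counted for 350 lncRNA loci (40.5%), against 1476 protein-coding genes (11.1%). Reads were present in all 6 libraries for 393 lncRNA loci (45.4%), against 11161 protein-coding genes (84.1%).

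The upper end of the distribution was thin but not empty. A mean of at least 1 CPM was reached by 210 lncRNA loci (24.3%), against 9933 protein-coding genes (74.8%). At least 10 CPM was reached by 43 loci (4.97%), against 6367 protein-coding genes (48.0%), and at least 100 CPM by 9 loci (1.04%), against 1545 protein-coding genes (11.6%). The highest mean was 1700 CPM among lncRNA loci, against 31013 CPM among protein-coding genes.

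**Figure D1:**
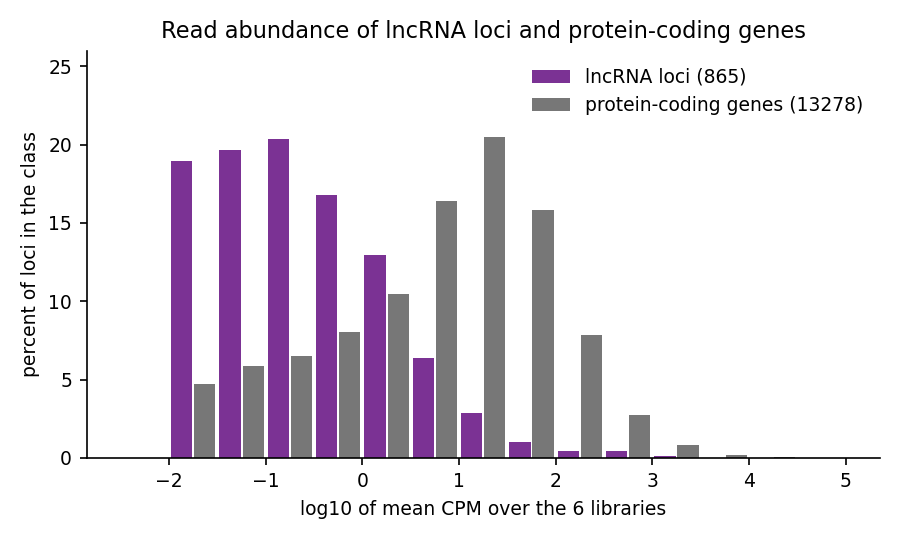
Percent of the 865 lncRNA loci (purple bars) and of the 13278 protein-coding genes (grey bars) in each step of mean read abundance, given as log10 of the mean CPM over the 6 libraries. The lncRNA bars pile up below 0 on the log10 scale, that is below 1 CPM, and the protein-coding bars peak between 1 and 2.

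Reads per locus depend on length, so levels were also set per kilobase of genomic span, the distance between a locus's start and its end in the table. Span includes introns, and exonic lengths were not used here. The median span was 1558 bases for lncRNA loci and 3940.5 bases for protein-coding genes. Per kilobase of span the median level was 0.0948 CPM for lncRNA loci and 1.80 CPM for protein-coding genes, a ratio of 0.0526. The gap was present in every class of span. Among loci of at most 1000 bases, 320 lncRNA loci had a median of 0.237 CPM per kilobase, against 4.50 CPM per kilobase for 1897 protein-coding genes. Between 2000 and 5000 bases the medians were 0.124 CPM per kilobase for 153 lncRNA loci and 3.61 CPM per kilobase for 3073 protein-coding genes. Above 20000 bases they were 0.00193 CPM per kilobase for 87 lncRNA loci and 0.206 CPM per kilobase for 2405 protein-coding genes. The longest lncRNA locus, LOC109611645, spans 256252 bases on NW_004764531.1 (79126-335377, plus strand) and had 1 read, in dsGFP replicate 1.

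A handful of loci held most of the lncRNA reads. The 10 most abundant loci held between 72.1% and 77.2% of all lncRNA reads in each library, and the single most abundant, LOC109611815, held between 25.5% and 33.3%. This locus spans NW_004764593.1:388250-393927 on the plus strand, and its end lies 654 bases from LOC101893184, on the opposite strand, which encodes peptidoglycan-recognition protein SB1, a member of a family that binds bacterial cell-wall peptidoglycan. LOC109611815 had 2057, 1628 and 1530 CPM in dsMdCht9 larvae, against 1962, 1344 and 1676 CPM in dsGFP larvae. The groups overlapped, and the log2 fold change, dsMdCht9 over dsGFP, was 0.07 with a standard error (SE) of 0.21. The peptidoglycan-recognition gene beside it had 543, 414 and 389 CPM in dsMdCht9 larvae, against 660, 483 and 345 CPM in dsGFP larvae, which overlapped as well.

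LOC101891216, on the same scaffold and strand (NW_004764593.1:384091-386844), is the record that the table gives as the best nucleotide match of LOC109611815, so reads of the 2 loci may be shared and each value alone is uncertain. It had 479, 371 and 403 CPM in dsMdCht9 larvae, against 362, 298 and 357 CPM in dsGFP larvae. All 3 dsMdCht9 values lay above all 3 dsGFP values, by a log2 fold change of 0.30 ± 0.18 (SE), and the gap was narrow, 371 against 362 CPM.

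LOC109611751 (NW_004764567.1:465649-466568, plus strand) lies inside LOC101889291, a sodium channel protein 60E gene of the opposite strand. It had 659, 379 and 425 CPM in dsMdCht9 larvae, against 829, 531 and 560 CPM in dsGFP larvae. The groups overlapped, while each dsMdCht9 library lay below the dsGFP library of the same number. The edgeR log2 fold change was -0.39 ± 0.28 (SE), with an unadjusted p of 0.206, and with the replicate number as a block it was -0.40 ± 0.13 (SE), with an unadjusted p of 0.0191 and an adjusted p of 0.543. The channel gene averaged 0.141 ± 0.073 CPM in dsMdCht9 larvae and 0.0438 ± 0.038 CPM in dsGFP larvae (SD, n = 3 each). Whether the authors' counting used strand is not given in the sources used here, so reads of such opposite-strand pairs cannot be told apart by the table alone. Per kilobase of span LOC109611751 was the most abundant of all lncRNA loci, at 613 CPM per kilobase.

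LOC101895998 (NW_004764561.1:556885-559824, plus strand) lies 22435 bases from its nearest protein-coding gene. It had 521, 535 and 609 CPM in dsMdCht9 larvae, against 505, 568 and 697 CPM in dsGFP larvae, and the groups overlapped. LOC101896633 (NW_004764783.1:107729-118764, minus strand) had the smallest p of the 10 most abundant loci. It had 274, 273 and 297 CPM in dsMdCht9 larvae, against 171, 180 and 227 CPM in dsGFP larvae. The groups did not overlap, and the log2 fold change was 0.55 ± 0.17 (SE), with an edgeR unadjusted p of 0.0158 and an adjusted p of 0.999.

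LOC105261566 and LOC105261567 are short loci of 339 and 332 bases on opposite strands of NW_004764662.1, at 169369-169707 and 175360-175691. LOC105261566 had 184, 116 and 250 CPM in dsMdCht9 larvae, against 182, 110 and 282 CPM in dsGFP larvae. LOC105261567 had 89.7, 116 and 199 CPM in dsMdCht9 larvae, against 140, 80.1 and 228 CPM in dsGFP larvae. Both loci were highest in the library numbered 3 of each group, and the groups overlapped at both. LOC101891808 (NW_004764835.1:4088-6579, minus strand) had 116, 64.6 and 120 CPM in dsMdCht9 larvae, against 42.5, 54.8 and 79.0 CPM in dsGFP larvae, and only dsMdCht9 replicate 2 lay within the dsGFP range.

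Because of these few loci, the share of all counted reads that fell in lncRNA loci was set mainly by the most abundant ones. The share was 0.774%, 0.506% and 0.633% in dsMdCht9 larvae, against 0.529%, 0.495% and 0.626% in dsGFP larvae. The means were 0.637 ± 0.134% in dsMdCht9 larvae and 0.550 ± 0.0683% in dsGFP larvae (SD, n = 3 each), and a two-sided exact permutation test gave p = 0.4, where 3 libraries against 3 cannot give a p below 0.1. The groups overlapped, although each dsMdCht9 library lay above the dsGFP library of the same number. The difference of 0.0873 percentage points depended on single libraries: it was 0.0192 without dsMdCht9 replicate 1 and 0.153 without dsMdCht9 replicate 2. Without the 10 most abundant loci the share was 0.176%, 0.141% and 0.174% in dsMdCht9 larvae, against 0.121%, 0.126% and 0.150% in dsGFP larvae (exact permutation p = 0.2). Reads were seen at 651, 582 and 629 lncRNA loci in dsMdCht9 larvae, against 583, 583 and 605 in dsGFP larvae, and the groups overlapped. Each dsGFP library had more counted reads than any dsMdCht9 library, but dsMdCht9 replicate 1 had the largest TMM factor, 1.13. The part of depth and scaling in these numbers was not tested.

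The 865 loci lay on 684 of the 3272 scaffolds in the table, and 554 of those scaffolds held a single lncRNA locus. The most on any scaffold was 8, on NW_004764555.1, which also held 22 protein-coding genes. All 8 were weak, with between 3 and 40 reads over the 6 libraries. Of all lncRNA loci 180 (20.8%) were the only gene on their scaffold, against 1364 protein-coding genes (10.3%). The plus strand carried 411 loci and the minus strand 454.

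Relative to protein-coding genes, 116 lncRNA loci (13.4%) overlapped a gene on the opposite strand by at least 1 base, and 52 (6.01%) overlapped a gene on the same strand. Another 34 (3.93%) were head-to-head with a gene, with starts within 1000 bases and opposite directions of transcription. A further 219 (25.3%) lay within 5000 bases of a gene and 226 (26.1%) lay farther away. The remaining 218 (25.2%) shared their scaffold with no protein-coding gene in the table. The assembly is broken into many short scaffolds, so the distance to the true nearest gene is unknown for these last loci.

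Head-to-head loci had the lowest median read abundance and loci within 5000 bases of a gene the highest, with no correction for length and no test. Median CPM per locus was 0.129 for opposite-strand overlaps, 0.115 for same-strand overlaps, 0.0661 for head-to-head loci, 0.312 for loci within 5000 bases, 0.169 for farther loci and 0.235 for loci without a gene on the scaffold. The genes beside them were far better covered: over all neighbours, with no filter, the median was 26.4 CPM at opposite-strand overlaps and 34.4 CPM at same-strand overlaps.

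The question of the study's only contrast was which transcripts differ after injection against MdCht9. A locus entered the test if its counts passed the filterByExpr filter of edgeR, here 0.680 CPM, before TMM scaling, in at least 3 libraries. Of the 865 lncRNA loci, 270 (31.2%) passed, against 10340 protein-coding genes (77.9%), and 595 loci were too weak to be tested. The filter was not neutral: 7 loci reached 0.680 CPM in all 3 dsMdCht9 libraries and in no dsGFP library, and 0 did so the other way round, with 11 and 4 among protein-coding genes. In all 3 dsMdCht9 libraries but not in all 3 dsGFP libraries it was reached by 47 loci, against 9 the other way round, with 236 and 185 among protein-coding genes. The 7 loci were LOC105262480, LOC109613880, LOC109614315, LOC105262167, LOC105262405, LOC101899005 and LOC101895030. They entered the test only through the group in which they are high, so their fold changes and p-values are given as descriptions and support nothing. Values over all 865 loci are therefore given beside those over the 270.

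At a Benjamini-Hochberg adjusted p under 0.05 over all 10644 tested genes, edgeR's quasi-likelihood test called 0 lncRNA loci and 0 genes of any class. The smallest adjusted p was 0.675. At an unadjusted p under 0.05, 36 lncRNA loci passed, of which 35 were higher and 1 was lower in dsMdCht9 larvae. That is 13% and 0.37% of the 270 tested loci. Over all tested genes 1.97% were higher and 1.61% were lower at this level, and among protein-coding genes 175 were higher (1.69%) and 169 lower (1.63%). All 3 dsMdCht9 libraries lay above all 3 dsGFP libraries at 46 lncRNA loci (17%) and below them at 2 (0.741%), against 4.83% and 3.38% of all tested genes and 4.53% and 3.44% of protein-coding genes. The shares of lncRNA loci were above the background on the higher side and below it on the lower side. They include loci among the 7 that the filter admitted only through dsMdCht9 larvae, so they are given as descriptions. With the replicate number as a block, edgeR again called 0 lncRNA loci, with a smallest adjusted p of 0.155, and 42 were higher and 5 lower at an unadjusted p under 0.05. The block raised the number of all genes at that level to 888, against 381 without it.

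More lncRNA loci were higher than lower in dsMdCht9 larvae, by a small amount per locus; the counts describe these libraries and carry no test of the list. Among the 270 tested loci 195 had a positive log2 fold change and 75 a negative one (72.2% positive, against 49.5% of all tested genes and 48.9% of protein-coding genes). The median log2 fold change was 0.26, with quartiles of -0.04 and 0.53, and the median of the protein-coding genes was -0.01. Over all 865 loci, with no filter, 548 had a higher mean CPM in dsMdCht9 larvae and 317 a lower one (63.4% higher, against 49.9% of all genes and 49.0% of protein-coding genes). A fit without the filter had 57 of the 865 higher and 8 lower at an unadjusted p under 0.05 (6.59% and 0.925%), against 1.72% and 1.76% of all genes. A filter on the mean over all 6 libraries, chosen after the data were seen and blind to which group was high, kept 211 loci with a mean of at least 1 CPM. There 146 were higher and 65 lower, with a median log2 fold change of 0.22. At an edgeR unadjusted p under 0.05, 29 of the 211 were higher and 1 lower, against 173 and 163 of 9939 protein-coding genes. With no overlap of the groups, 36 of the 211 were higher and 2 lower, against 449 and 341 of those protein-coding genes.

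The summed CPM of lncRNA loci was higher in dsMdCht9 larvae without overlap of the groups in 6 steps of abundance, and the groups overlapped in the step above 16 CPM. The gap was narrow between 1 and 4 CPM, with 223 in the lowest dsMdCht9 library against 222 in the highest dsGFP library. It was narrow too between 0.1 and 0.25 CPM, at 22.8 against 22.4. Among the 334 lncRNA loci of at most 0.1 CPM, the summed CPM in dsMdCht9 larvae was 1.39 times that in dsGFP larvae, against 0.954 times for protein-coding genes of the same abundance. The ratio was 1.31 for the 80 loci between 0.5 and 1 CPM, 1.24 for the 122 loci between 1 and 4 CPM, and 1.04 for the 34 loci above 16 CPM. Protein-coding genes had 0.978, 0.983 and 0.920 in the same 3 steps. The summed CPM of the 80 loci between 0.5 and 1 CPM was 74.2, 60.6 and 67.0 in dsMdCht9 larvae, against 50.8, 50.0 and 52.9 in dsGFP larvae, with no overlap. Above 16 CPM it was 5988, 4571 and 5182 in dsMdCht9 larvae, against 5212, 4509 and 5421 in dsGFP larvae, which overlapped. The summed CPM of protein-coding genes overlapped between the groups in all 7 steps.

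**Figure D2:**
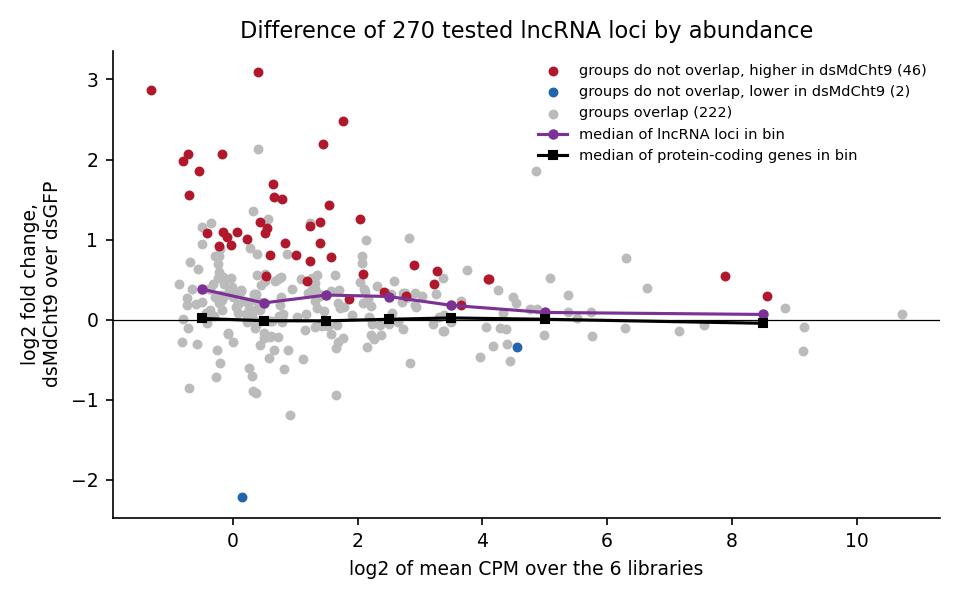
Log2 fold change, dsMdCht9 over dsGFP, of each of the 270 tested lncRNA loci (points) against log2 of the mean CPM over the 6 libraries. Red points (46) are loci whose 3 dsMdCht9 libraries all lie above the dsGFP libraries, blue points (2) the reverse; the purple line of lncRNA medians stays above the black line of protein-coding medians in every bin drawn.

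The shift differed between libraries of one group. Relative to the mean of the 3 dsGFP libraries, the median tested lncRNA locus stood at 0.33, 0.14 and 0.28 on the log2 scale in dsMdCht9 larvae, against 0.02, -0.03 and 0.09 in dsGFP larvae. Over all 865 loci, with no filter, the median stood at 0.19, 0 and 0.09 in dsMdCht9 larvae, against 0 in each dsGFP library. Without the filter, dsMdCht9 replicate 2 thus had no shift of the median. The median tested protein-coding gene stayed between -0.01 and 0.02 in all 6 libraries. Protein-coding genes under 4 CPM, of an abundance nearer to that of the lncRNA loci, stood at 0.04, -0.01 and 0.05 in dsMdCht9 larvae, against 0.01, -0.03 and 0.07 in dsGFP larvae. The 33 tested pseudogenes had a median log2 fold change of -0.06.

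**Figure D3:**
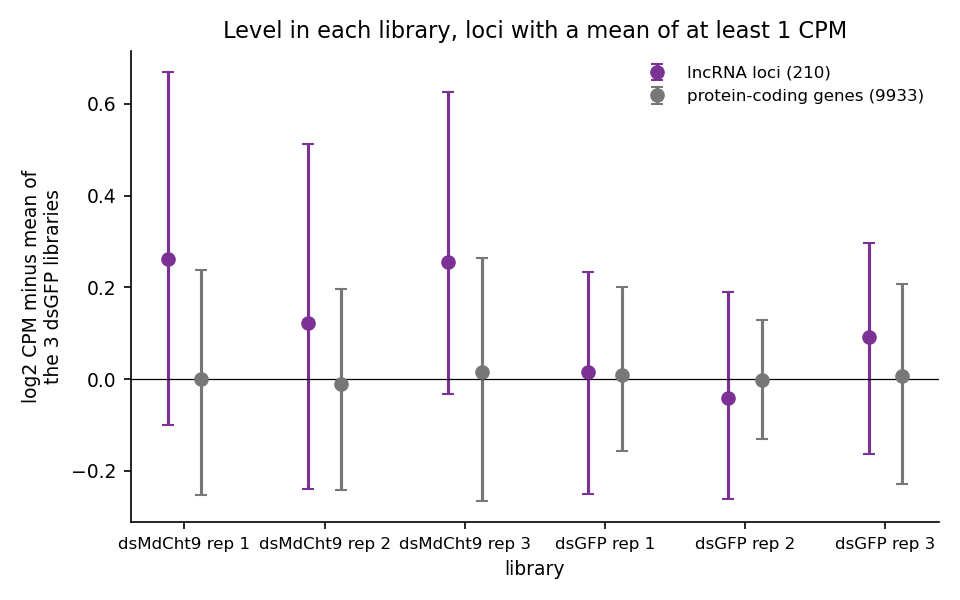
Level in each library, as log2 CPM minus the mean of the 3 dsGFP libraries, for the 210 lncRNA loci (purple) and the 9933 protein-coding genes (grey) with a mean of at least 1 CPM. Points are medians and bars run between the quartiles of the loci; the lncRNA medians are 0.26, 0.12 and 0.25 in the dsMdCht9 libraries and 0.02, -0.04 and 0.09 in the dsGFP libraries.

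Markers of several tissues also varied between the dsMdCht9 libraries. The 12 fat-body storage protein genes summed to between 83179 and 145446 CPM in dsMdCht9 larvae and between 113906 and 149190 CPM in dsGFP larvae. The 6 muscle myosin heavy chain genes summed to between 5818 and 13229 CPM in dsMdCht9 larvae and between 7327 and 12712 CPM in dsGFP larvae. For both lists, and for the 70 larval cuticle protein genes and the 6 haemocyte genes, dsMdCht9 replicate 1 was the lowest of the 6 libraries. The 99 trypsin genes of the gut (6445 to 10460 CPM in dsMdCht9 larvae, 9412 to 9626 CPM in dsGFP larvae) and the 15 nervous system genes (124 to 144 CPM in dsMdCht9 larvae, 132 to 162 CPM in dsGFP larvae) were lowest there too. That library also had the largest TMM factor, 1.13, against 0.899 to 1.05 in the other libraries, and a larger factor lowers every CPM value of a library. The part of this scaling in the marker sums was not tested. The same library had the highest median lncRNA level, and the part of tissue make-up in the lncRNA values was not tested. In RNA from whole larvae, fewer cells of a type and less RNA per cell cannot be told apart.

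Among the tested loci, for which the filter was not neutral, the median log2 fold change was above 0 at every position. Over all lncRNA loci, with no filter, the share with a higher mean in dsMdCht9 larvae was lowest at same-strand overlaps, 59.6%. It was highest at head-to-head loci, 76.5%, against 49.9% of all genes. The median log2 fold change of tested loci was 0.19 for the 26 opposite-strand overlaps, 0.33 for the 12 same-strand overlaps, 0.41 for the 8 head-to-head loci, 0.26 for the 76 loci within 5000 bases, 0.33 for the 69 farther loci and 0.21 for the 79 loci with no gene on the scaffold. The protein-coding neighbours stood nearer to 0. Their median log2 fold changes, over pairs in which both members were tested, were 0.02 for 23 opposite-strand overlaps, -0.07 for 12 same-strand overlaps, 0.08 for 8 head-to-head pairs, 0.02 for 70 pairs within 5000 bases and -0.01 for 55 farther pairs. Differences between the positions were not tested.

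The locus with the smallest p was LOC109613889 (NW_004767329.1:13595-15715, minus strand). It had 5.26, 4.21 and 7.89 CPM in dsMdCht9 larvae, against 1.01, 0.682 and 1.39 CPM in dsGFP larvae. In reads these values were 84, 54 and 107 in dsMdCht9 larvae, against 14, 10 and 22 in dsGFP larvae. Every dsMdCht9 library lay well above every dsGFP library, and the log2 fold change was 2.48 ± 0.38 (SE). The edgeR adjusted p was 0.675, and DESeq2, a second count test, gave an adjusted p of 0.000168. Its nearest protein-coding gene, LOC101892068, lies 317 bases away on the same strand and encodes monocarboxylate transporter 7, of a family that carries small organic acids across membranes. The transporter gene averaged 58.6 ± 10.6 CPM in dsMdCht9 larvae and 54.3 ± 4.71 CPM in dsGFP larvae (SD, n = 3 each), a log2 fold change of 0.11 ± 0.17 (SE).

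LOC109613915 spans 832 bases of NW_004767659.1 (877-1708, minus strand), a scaffold on which the table has no protein-coding gene. It had 5.13, 2.81 and 5.46 CPM in dsMdCht9 larvae, against 1.23, 0.886 and 0.822 CPM in dsGFP larvae. The groups did not overlap, and the log2 fold change was 2.19 ± 0.36 (SE). The edgeR adjusted p was 0.675 and the DESeq2 adjusted p was 0.00131.

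LOC105262480 spans 15738 bases of NW_004772927.1 (41559-57296, minus strand), also with no protein-coding gene on the scaffold. It had 2.69, 1.32 and 3.10 CPM in dsMdCht9 larvae, against 0.216, 0.409 and 0.190 CPM in dsGFP larvae, with 12 reads over the 3 dsGFP libraries. It was tested only because of its level in dsMdCht9 larvae, since no dsGFP library reached the filter. With that limit, its log2 fold change was 3.09 ± 0.51 (SE), with an edgeR adjusted p of 0.675 and a DESeq2 adjusted p of 0.00261. These 3 loci were the lncRNA calls of DESeq2 at an adjusted p under 0.05, among 14 genes in all (0.132% of the genes it tested) and 9 that were higher (0.0847%). On simulated counts DESeq2 called 36 unchanged genes, against 7 for edgeR. The simulation used edgeR's own estimates of spread and independent libraries, so it cannot say whether any of these 3 calls is wrong. All 3 loci also had an adjusted p under 0.05 in the authors' deposited table. That table rests on the same libraries, with log2 fold changes of 2.48, 2.19 and 3.12, so it is no separate evidence.

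DESeq2 with the replicate number as a block called the same 3 loci and LOC101897228, among 88 genes (0.86% of the genes tested), of which 16 were higher (0.156%). LOC101897228 (NW_004765104.1:1023110-1023564, plus strand) lies within LOC101900555, a gene of the same strand described as corticotropin-releasing factor-binding protein. It had 14.6, 26.4 and 95.3 CPM in dsMdCht9 larvae, against 7.50, 8.73 and 21.2 CPM in dsGFP larvae. Each dsMdCht9 library was above the dsGFP library of the same number, but the groups overlapped, since dsGFP replicate 3 lay above dsMdCht9 replicate 1. The log2 fold change was 1.86 ± 0.77 (SE). The adjusted p was 2.5e-05 by DESeq2 with the block, 0.613 by DESeq2 without it, and 0.317 by edgeR with the block. Without dsMdCht9 replicate 3 the edgeR log2 fold change was 0.72. The surrounding gene averaged 0.726 ± 0.0782 CPM in dsMdCht9 larvae and 0.804 ± 0.199 CPM in dsGFP larvae (SD, n = 3 each).

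**Figure D4:**
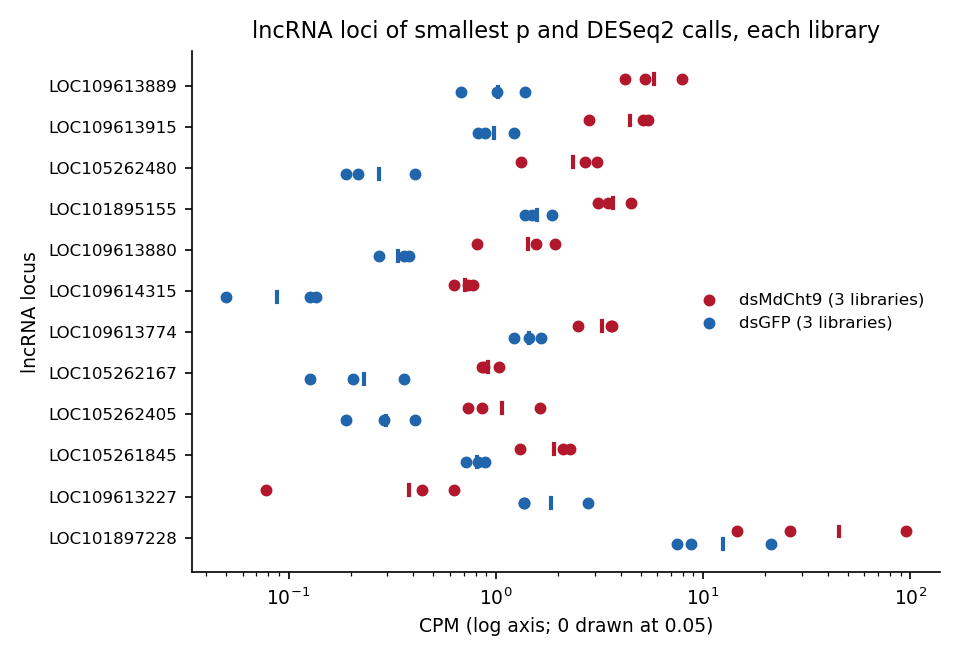
CPM in each library (log axis) of the 10 lncRNA loci of smallest p that were higher, the 1 that was lower, and LOC101897228, with dsMdCht9 libraries in red above dsGFP libraries in blue and short bars at the group means. All but LOC101897228 were picked as loci whose groups do not overlap, so the separation of their red and blue points was fixed by that choice. At LOC101897228, dsGFP replicate 3 at 21.2 CPM lies above dsMdCht9 replicate 1 at 14.6 CPM.

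Of the other loci with small p, LOC101895155 (NW_004765985.1:11814-16866, minus strand) had 4.51, 3.12 and 3.47 CPM in dsMdCht9 larvae, against 1.87, 1.5 and 1.39 CPM in dsGFP larvae. LOC109613774 (NW_004766614.1:24815-28281, minus strand) had 3.63, 2.49 and 3.61 CPM in dsMdCht9 larvae, against 1.66, 1.23 and 1.46 CPM in dsGFP larvae. At both, every dsMdCht9 library lay above every dsGFP library, with log2 fold changes of 1.22 ± 0.28 and 1.16 ± 0.29 (SE), and neither shares its scaffold with a protein-coding gene. LOC109613880 (NW_004767295.1:6767-8420, minus strand) had 1.94, 1.56 and 0.811 CPM in dsMdCht9 larvae, against 0.361, 0.273 and 0.380 CPM in dsGFP larvae, a log2 fold change of 2.07 ± 0.48 (SE); it too passed the filter in dsMdCht9 libraries alone.

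The weakest of the named loci rested on few reads. LOC109614315 (NW_004773926.1:9385-10031, minus strand) had 10 reads in each dsMdCht9 library, against 0, 2 and 2 reads in dsGFP larvae. LOC105262167 (NW_004766306.1:90518-100416, plus strand) had 14, 11 and 14 reads in dsMdCht9 larvae, against 5, 3 and 2 in dsGFP larvae. It lies 996 bases from LOC101898972, which encodes a mitochondrial methionine aminopeptidase, an enzyme that removes the first methionine of new proteins, and that gene averaged 3.08 ± 0.537 CPM in dsMdCht9 larvae and 4.87 ± 2.19 CPM in dsGFP larvae (SD, n = 3 each). LOC105262405 (NW_004770006.1:64386-65092, plus strand) had 26, 11 and 10 reads in dsMdCht9 larvae, against 4, 6 and 3 in dsGFP larvae. All 3 loci reached the filter in dsMdCht9 libraries alone and had to be higher there to be tested at all; their log2 fold changes were between 1.85 and 2.87.

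LOC105261845 (NW_004765152.1:2682-18223, plus strand) had 1.32, 2.1 and 2.29 CPM in dsMdCht9 larvae, against 0.721, 0.886 and 0.822 CPM in dsGFP larvae, a log2 fold change of 1.22 ± 0.35 (SE). Its nearest protein-coding gene, LOC101888190, lies 9946 bases away on the same strand and encodes an uncharacterized protein. That gene had 1.19, 0.779 and 0.885 CPM in dsMdCht9 larvae, against 0.433, 0.477 and 0.443 CPM in dsGFP larvae. It rested on 41 reads in dsMdCht9 larvae, against 20 in dsGFP larvae. Its log2 fold change was 1.07 ± 0.39 (SE), with an edgeR unadjusted p of 0.0285 and an adjusted p of 0.999. The unadjusted p was 0.0594 by edgeR with the block, 0.0756 by DESeq2 and 0.183 by DESeq2 with the block. It was the one tested neighbour of the 11 loci of smallest p whose groups did not overlap. The edgeR adjusted p was 0.999 for LOC105261845 and for every other locus of the last 2 paragraphs.

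One locus was lower at an unadjusted p under 0.05 with no overlap. LOC109613227 (NW_004765644.1:142983-144118, minus strand) had 0.626, 0.0779 and 0.442 CPM in dsMdCht9 larvae, against 1.37, 1.36 and 2.78 CPM in dsGFP larvae. In reads these were 10, 1 and 6 in dsMdCht9 larvae, against 19, 20 and 44 in dsGFP larvae. The log2 fold change was -2.21 ± 0.63 (SE), with an edgeR adjusted p of 0.999. The locus lies within LOC101898555, a gene of the same strand described as zinc finger protein 2 homolog, which averaged 0.769 ± 0.175 CPM in dsMdCht9 larvae and 0.840 ± 0.127 CPM in dsGFP larvae (SD, n = 3 each). The gene around it thus did not show the difference, though reads on shared bases may have been assigned to either.

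Loci with reads in a single group were few and weak. With at least 10 reads in one group and 0 in the other, 5 were seen in dsMdCht9 larvae alone (0.578% of the 865) and 1 in dsGFP larvae alone (0.116%). By the same rule 9 of all genes (0.0633%) had reads in dsMdCht9 larvae alone and 8 (0.0562%) in dsGFP larvae alone, and among protein-coding genes these were 4 (0.0301%) and 7 (0.0527%). LOC105262193 had 7, 2 and 12 reads in dsMdCht9 larvae and 0 in dsGFP larvae, which is at least 7.33-fold higher against a floor of 3 reads over the dsGFP group. LOC109613611 had 8, 4 and 6 reads in dsMdCht9 larvae and 0 in dsGFP larvae, at least 6.28-fold higher by the same floor. LOC109613744, LOC101891562 and LOC109613141 had 18, 17 and 11 reads in all in dsMdCht9 larvae and 0 in dsGFP larvae. LOC109611765, which overlaps a gene on the opposite strand, had 0 reads in dsMdCht9 larvae and 3, 1 and 7 in dsGFP larvae, at least 3.50-fold lower against a floor of 3 reads over the dsMdCht9 group. None of these 6 passed the filter for the test, and such floors cover counting error only.

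The authors' deposited table marks genes with an unadjusted p under 0.05 and a change of more than 1.5-fold. It marked 43 lncRNA loci as higher and 6 as lower in dsMdCht9 larvae, which is 4.97% and 0.694% of the 865. Over all genes the authors' deposited table marked 1.14% as higher and 1.52% as lower.

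Replicates of a group differed more at lncRNA loci than at protein-coding genes, and abundance went along with most of that gap. The spread was measured as the SD of log2 CPM within a group, pooled over both groups, with a prior count of 2. Its median was 0.446 for the tested lncRNA loci and 0.299 for the tested protein-coding genes. In bins of equal abundance the medians were close. Between 0 and 1 on the log2 CPM scale they were 0.491 for 76 lncRNA loci and 0.493 for protein-coding genes, and between 2 and 3 they were 0.324 for 39 lncRNA loci and 0.324 for protein-coding genes. The widest gap was above 6, at 0.387 for 11 loci, against 0.253 for protein-coding genes.

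**Figure D5:**
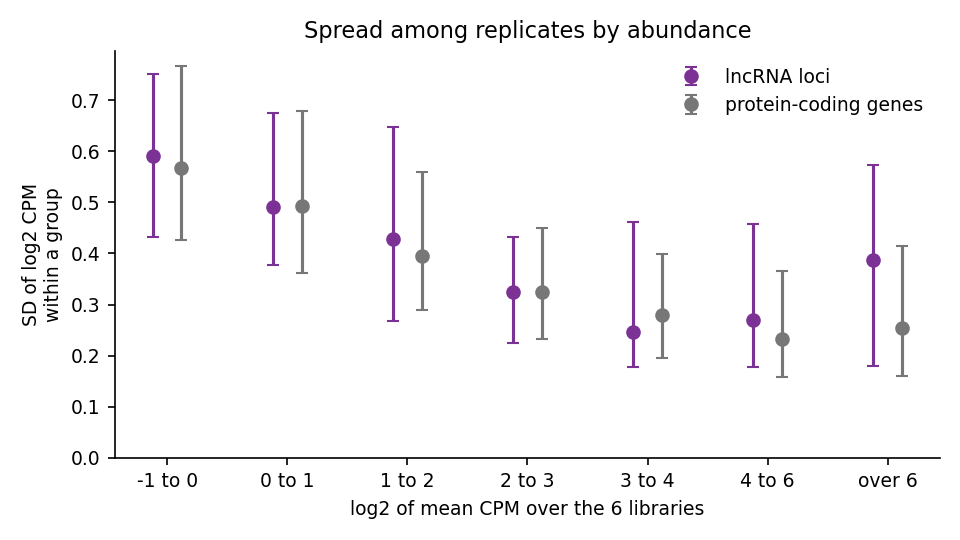
Within-group SD of log2 CPM by step of log2 mean CPM for tested lncRNA loci (purple) and protein-coding genes (grey); points are medians and bars run between the quartiles of the loci. The medians decline together from 0.590 and 0.567 in the lowest step shown, and part in the step above 6, which holds 11 lncRNA loci.

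Among tested loci of at least 1 CPM, LOC109612961 had the largest spread, with an SD of 2.06. It had 10.96, 1.01 and 5.53 CPM in dsMdCht9 larvae, against 1.73, 6.95 and 0.127 CPM in dsGFP larvae. The values differed between libraries of one group by far more than between the groups.

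That locus (NW_004765402.1:108616-110375, minus strand) lies on the scaffold of LOC101890718 (116144-117025, plus strand), one of the 10 most abundant lncRNA loci. LOC101890718 had 815, 212 and 424 CPM in dsMdCht9 larvae, against 294, 574 and 441 CPM in dsGFP larvae, an SD of 0.769. Both loci were highest in dsMdCht9 replicate 1 and next highest in dsGFP replicate 2, but dsGFP replicate 3 was the lowest library for LOC109612961 and the third highest for LOC101890718. LOC105261940, an uncharacterized protein-coding gene, lies 111 bases from LOC101890718 and is the protein that the table gives as the best match of LOC109612961. It had 4.82, 9.35 and 8.18 CPM in dsMdCht9 larvae, against 14.8, 21.3 and 6.07 CPM in dsGFP larvae, which is another order of the libraries. Reads shared between these related sequences would blur each value, and their part was not tested.

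LOC101894025 (SD 1.68), LOC109612094 (1.59), LOC109613581 (1.51) and LOC105261881 (1.49) followed. LOC101894025 had 1.19, 0.623 and 2.80 CPM in dsMdCht9 larvae, against 0.577, 0.0682 and 3.99 CPM in dsGFP larvae, highest in the libraries numbered 3. LOC109612094 had 62, 19 and 15 reads in dsMdCht9 larvae, against 21, 0 and 0 reads in dsGFP larvae, highest in the libraries numbered 1. LOC109613581 was also highest in the libraries numbered 1, with 47, 23 and 20 reads in dsMdCht9 larvae, against 32, 5 and 0 in dsGFP larvae. At each of these 3 loci the groups overlapped.

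The steadiest locus was LOC105262123 (NW_004764263.1:8966-13967, plus strand), with an SD of 0.0602. It had 47.9, 45.7 and 44.9 CPM in dsMdCht9 larvae, against 43.8, 45.1 and 48.1 CPM in dsGFP larvae, so that all 6 libraries lay within a few CPM of each other. LOC109613077, whose best protein match is a reverse transcriptase of a jockey-like mobile element, had an SD of 0.0813. It had 14.2, 13.3 and 12.7 CPM in dsMdCht9 larvae, against 12.3, 11.04 and 12.2 CPM in dsGFP larvae. LOC105261852 (SD 0.107), LOC101900894 (0.108) and LOC101896496 (0.113) were nearly as steady.

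The annotation of the loci was mixed. A match to a protein was listed for 249 of the 865, of which 28 matched proteins of mobile elements, and 616 had none. Among those with a match were the abundant loci LOC109611815, LOC101891216 and LOC101896633. The best nucleotide match was the locus's own record for 227 loci, a messenger RNA of another housefly gene for 165 and another housefly non-coding RNA for 92, and 354 had no match listed. In a later RefSeq annotation of the species, 340 loci were found by their gene identifiers, and there 297 were lncRNA, 40 were protein-coding and 3 were pseudogenes; the other 525 were not matched. The 297 had a median of 0.206 CPM, and the 40 a median of 0.419 CPM. The share with a higher mean in dsMdCht9 larvae was 60.9% of the 297 and 65.0% of the 40.

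The identifiers also split the loci by when they were added to the annotation. Identifiers that begin with LOC109 made up 613 loci, with a median of 0.121 CPM, and the earlier series LOC101 and LOC105 made up 252, with a median of 0.610 CPM. A higher mean in dsMdCht9 larvae was seen at 61.3% of the 613 and at 68.3% of the 252.

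The largest set of related loci was 17 loci on 17 scaffolds whose best nucleotide match is the record of LOC105262460. They span between 216 and 841 bases, and the next set of this kind had 6 loci. The 17 loci together had 63, 38 and 51 reads in dsMdCht9 larvae, against 24, 19 and 50 in dsGFP larvae. Summed, they came to 3.94, 2.96 and 3.76 CPM in dsMdCht9 larvae, against 1.73, 1.3 and 3.16 CPM in dsGFP larvae, which overlapped at dsGFP replicate 3. With 1 of the 17 above the filter for the test, and sequences this alike, the reads of any single member are uncertain.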

How the data were processed

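RNA was measured in 3 dsMdCht9 and 3 dsGFP libraries, grouped by sample titles, with 3 µg of Trizol-extracted RNA per library per the labels. The authors deposited raw read counts per gene, per the file headers, together with a mean normalized signal, a ratio of the groups, its log2 value, a p-value and an adjusted p-value; these values are used only where the authors' deposited table is named. The submitters' processing notes list HISAT2 2.1.0, HTSeq 0.6.0 and StringTie 1.3.2d, without roles. The sources used here do not give the genome build, strand setting, polyadenylated RNA selection or multi-mapping rule. Near-identical loci may share reads.

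Counts were analysed in R 4.3.3 with edgeR 4.0.16: filterByExpr, TMM scaling, and a two-sided quasi-likelihood test with robust estimation and group as the only term, on 10644 genes, with Benjamini-Hochberg adjustment over all of them. SE is the log2 fold change divided by the root of F. DESeq2 1.42.0, limma-voom (limma 3.58.1), other scalings and filters, a replicate block and left-out libraries were alternatives. Simulated counts (10469 genes after the filter) used edgeR's own estimates of spread and independent libraries. On them edgeR called 70 of 100 genes changed 4-fold, 5 of 100 changed 2-fold and 7 unchanged genes. DESeq2 called 86, 35 and 36. Pairs of libraries within a group differed beyond sampling noise, with chi-square of 33.6 to 144 per degree of freedom.

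Replicate numbers come from the titles. Deviations of same-numbered libraries from their group means correlated at 0.24, 0.39 and 0.65 over all tested genes, and at 0.16, 0.14 and 0.41 over lncRNA loci. Over all tested genes, dsMdCht9 replicate 2 also correlated at 0.32 with dsGFP replicate 1. The labels do not say what the numbers share. The block was therefore run as an alternative only. Its pairing was read from these same counts and was not tested.

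Named loci were those of smallest unadjusted p without overlap of the groups (up to 10 in each direction), DESeq2 calls, the 10 most abundant, the 5 largest and 5 smallest spreads at 1 CPM or more, loci with at least 10 reads in 1 group alone, the longest locus and the scaffold with most loci. The members, lists and rules were chosen with earlier results of these data known. Positions are those of the deposited table, which names no assembly. The later RefSeq annotation (Musca_domestica.polishedcontigs.V.1.1) gave biotypes by gene identifier only.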

Additional observations from a re-analysis of the deposited data

How the results depend on the processing

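The number of lncRNA loci called was 3 with DESeq2 and 4 with DESeq2 and the replicate block, and 0 under every other setting run. The replicate block changed no edgeR call. With it 47 of the 270 tested lncRNA loci had an unadjusted p under 0.05, against 888 of all genes, and their median log2 fold change was 0.25. Without a filter on low counts 65 of the 865 loci were at that level, against 495 of all genes. Leaving out single libraries gave 25 to 38 lncRNA loci at that level among 282 to 292 tested, against 229 to 704 of all genes. Those runs gave a median log2 fold change of 0.21 to 0.33 over the lncRNA loci and a median within-group SD of 0.416 to 0.447. The difference in the share of reads was 0.0192 to 0.153 percentage points. With library size as the only scaling, the median log2 fold change was 0.12 over all genes and 0.38 over the lncRNA loci. The median SD was 0.477 with a prior count of 0.5, 0.392 with a prior count of 5, 0.419 for loci of at least 1 CPM in 3 libraries, and 0.384 without both libraries numbered 3. The level ratio to protein-coding genes was 0.358 among loci that passed the filter and 0.0216 for CPM without span. Head-to-head loci numbered 56 with starts within 2000 bases, and near loci 81 within 1000 bases. None of these settings changed the sign of the median lncRNA shift.

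Signs turned at 8 named loci, whose groups overlapped in every case. Under library size alone LOC101895998 stood at 0.0206, LOC105261566 at 0.0609, LOC101894025 at 0.0592 and LOC101900894 at 0.0193 on the log2 scale. LOC101890718 stood at -0.0141 with limma-voom, -0.011 with the edgeR block and -0.019 with the DESeq2 block, and LOC101894025 at 1.03, 0.50 and 0.81 under the same 3 settings. Without both libraries numbered 3, LOC105261566 stood at 0.0568. Leaving out single libraries gave -0.0737 to 0.20 for LOC109611815, -0.46 to 0.51 for LOC101890718, -0.53 to 0.30 for LOC105261567, -0.76 to 2.25 for LOC101894025, -0.0145 to 0.0597 for LOC105262123, -0.34 to 0.33 for LOC105261566 and -0.19 to 0.0512 for LOC101895998. The cause was not tested. Depth limits most loci: 595 of the 865 were too weak to test.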
